A study of Mus musculus with 15 samples.

Results

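Cytoplasmic ribosomal protein genes were the 84 protein-coding genes, of 37991 gene identifiers in the table, whose symbol starts with Rpl or Rps and a digit, together with Rplp0, Rplp1, Rplp2 and Rpsa. Pseudogene symbols, the Rps6k kinase genes and Rps19bp1 were left out. The large (60S) subunit contributed 51 of these genes and the small (40S) subunit 33. RNA sequencing counted their mRNAs in the whole liver of female C57BL/6 mice bred from heterozygous parents, with 5 animals in each of 3 groups. Young WT mice carried intact S6K1 alleles and were 90 days old. Old WT mice carried intact S6K1 alleles and were 600 days old, and old KO mice of the same 600 days lacked S6K1 in all tissues. The paralogous kinase S6K2 was not targeted in any group, and whole liver mixes hepatocytes with other cells, so that fewer cells of a type and less RNA per cell cannot be told apart.

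The ribosome joins a small subunit, which decodes the mRNA, to a large subunit, which forms the peptide bond, and each ribosomal protein is needed in near-equal number. Ribosomal protein mRNAs mostly begin with a C and a stretch of pyrimidines, the 5' terminal oligopyrimidine (TOP) tract, through which the kinase mTOR controls their translation. S6K1 acts downstream of mTOR and takes its name from ribosomal protein S6, the product of Rps6, which it phosphorylates. The comparisons below ask how the mRNA levels of these genes differed with age and with loss of S6K1.

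By exact match at the listed base, a minority of the annotated starts carried the sequence feature named above. A run that began beside the listed start, or with T, was not counted. In Rpl27a, for instance, 16 pyrimidines began with T at the listed start. Genes without a match may therefore still carry a TOP tract. RefSeq promoter windows (GRCm38.p6, 250 bases before to 50 after an annotated start) were matched by symbol for 62 of the 84 genes. A C at the start followed by at least 4 pyrimidines stood at an annotated start of 13 of the 62 (21%), against 467 of 17492 protein-coding genes (2.67%) and 0 of 69 mitochondrial ribosomal protein genes. The genes had a similar mean number of listed starts, 1.19 for ribosomal protein genes and 1.22 for all. The windows below run from 60 bases before to 20 bases after the start and are shown for 2 reasons. Rps6, Rpl35, Rps12, Rps2 and Rpl22l1 carry results that follow, with Rpl22 as the counterpart of Rpl22l1, and Rps27 and Rps21 are further examples of a pyrimidine start. Capitals mark a pyrimidine run that begins with C at the annotated start and, further upstream in Rps21, the motif CCGGAAG.
Rps6, chr4:86857348-86857427, minus strand: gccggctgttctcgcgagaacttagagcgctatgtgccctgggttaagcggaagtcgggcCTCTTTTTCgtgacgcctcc
Rpl35, chr2:39005112-39005191, minus strand: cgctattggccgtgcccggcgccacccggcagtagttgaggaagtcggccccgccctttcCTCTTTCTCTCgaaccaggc
Rps27, chr3:90213629-90213708, minus strand: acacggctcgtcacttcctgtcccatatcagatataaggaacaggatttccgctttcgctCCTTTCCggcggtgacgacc
Rps21, chr2:180257319-180257398, plus strand: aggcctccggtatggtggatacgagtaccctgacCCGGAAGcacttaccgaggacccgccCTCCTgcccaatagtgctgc
Rps12, chr10:23787190-23787269, minus strand: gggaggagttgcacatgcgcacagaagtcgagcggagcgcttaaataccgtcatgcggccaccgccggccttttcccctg
Rps2, chr17:24720003-24720082, plus strand: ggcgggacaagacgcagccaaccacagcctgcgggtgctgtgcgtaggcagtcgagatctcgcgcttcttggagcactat
Rpl22, chr4:152325666-152325745, plus strand: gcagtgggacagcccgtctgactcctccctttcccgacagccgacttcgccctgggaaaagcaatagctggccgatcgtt
Rpl22l1, chr3:28805448-28805527, plus strand: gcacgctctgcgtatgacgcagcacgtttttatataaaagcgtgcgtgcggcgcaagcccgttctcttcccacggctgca

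The pyrimidine run was 9 bases long in Rps6, 11 in Rpl35, 7 in Rps27 and 5 in Rps21. No such run began at the listed start of the other genes shown. In Rps12, Rps2 and Rpl22l1 a stretch of pyrimidines lay shortly after the listed start, and whether the listed starts are exact was not tested. The motif CCGGAAG, the core bound by ETS-family factors such as GABP, was found on either strand of the 300-base window in 24 of the 62 genes (38.7%), against 2265 of 17492 protein-coding genes (12.9%) and 26 of 69 mitochondrial ribosomal protein genes (37.7%). The GC box GGGCGG was found in 61.3% against 49.2% of all genes, the TATA motif TATAAA in 11.3% against 14.8%, the E box CACGTG in 9.68% against 8.91%, and AAGATGGC, the core bound by YY1, in 9.68% against 3.57%. None of these motifs contains another, and a match is a description of the window only.

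Many ribosomal protein mRNAs exist as processed copies elsewhere in the genome, which bears on how reads are counted. For each gene 1 annotated transcript was split into all 50-base windows, the read length, and each window was searched on both strands of the NCBIM37 genome. In the median ribosomal protein gene 35.5% of the windows occurred once, against 100% in the median of 77 mitochondrial ribosomal protein genes. In 13 of the 84 genes under 10% of windows were unique, among them Rps27 (0.34%), Rps12 (1.92%), Rps6 (5.31%) and Rpl36 (6.48%), and in 29 genes no window of the coding sequence was. Rpl3l and Rpl39l were among those unique throughout. The 433 short annotated copies that shared at least 50 windows with a member gene held 0.498% of the counts of members and copies together, and in no library more than 0.00369% of all counts. Reads that fit several places could therefore have been placed at the member or left uncounted, and single members with few unique windows are read as uncertain for that reason.

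Levels differed widely between members. Counts are given as CPM (counts scaled to a common library size) after TMM scaling of library sizes, and levels between genes as CPM per kb of the union of annotated exons. The highest by that scale were Rpl4 (326), Rplp1 (290), Rpl8 (217), Rpl32 (211) and Rps27 (171 CPM per kb). The lowest were Rps4y2 (5.62), Rpl23a (3.09), Rpl3l (0.0656) and Rpl39l (0.00959 CPM per kb), while Rpl10l had 0 counts in all 15 libraries. Only 5.48% of the windows of Rpl23a were unique, so its level is read as uncertain. The part of uncounted reads in that level was not tested. Rpl3l, a muscle form of Rpl3, Rpl39l and Rpl10l, which are known from testis, did not pass the filter on low counts, so 81 of the 84 genes were tested among 14258. Over the 81 the level per kb of the chosen transcript ran from 4.68 to 326 with a median of 94.9 CPM per kb. Its rank correlation with the share of unique windows was 0.0506 across genes, which are not independent replicates. That value does not show that single genes were unaffected by shared windows.

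**Figure D1:**
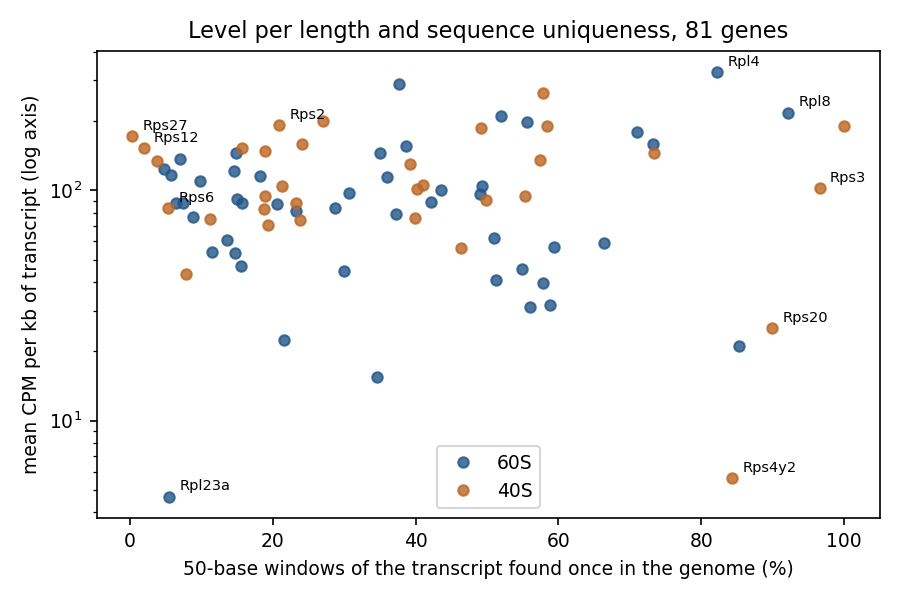
Mean CPM per kb of transcript over the 15 libraries (vertical axis, log scale) against the percentage of the transcript's 50-base windows that occur once in the genome, for 81 genes, coloured by subunit. Rps27 at 0.34% unique windows stood at 171 CPM per kb and Rpl8 at 92.1% stood at 217. Rpl23a at 5.48% and Rps4y2 at 84.3% unique windows lay below all others.

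All members together took 0.613% to 0.708% of the counts of a library. Young WT libraries gave them 0.613% to 0.689%, old WT libraries 0.647% to 0.698% and old KO libraries 0.676% to 0.708%, so the groups overlapped. After TMM scaling the mean deviation of the 81 genes on the log2 scale was lowest in young WT 6 (-0.18) and old WT 1 (-0.16) and highest in old KO 4 (0.12). Young WT 6 held the lowest value of 33 of the 81 genes and old WT 1 that of 21. Libraries held 21801754 to 38065359 counts, and young WT 6 was the smallest. Rps6kb1, the gene of S6K1, was at 33.3 to 41.4 CPM in young WT, 34.6 to 45.4 CPM in old WT and 15.2 to 20.8 CPM in old KO, as the labels say. Summed hepatocyte markers stood at 87729 to 149771 CPM in all libraries, while skeletal muscle markers were at or under 0.0374 CPM in every library but old KO 6 (14.3 CPM).

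**Figure D2:**
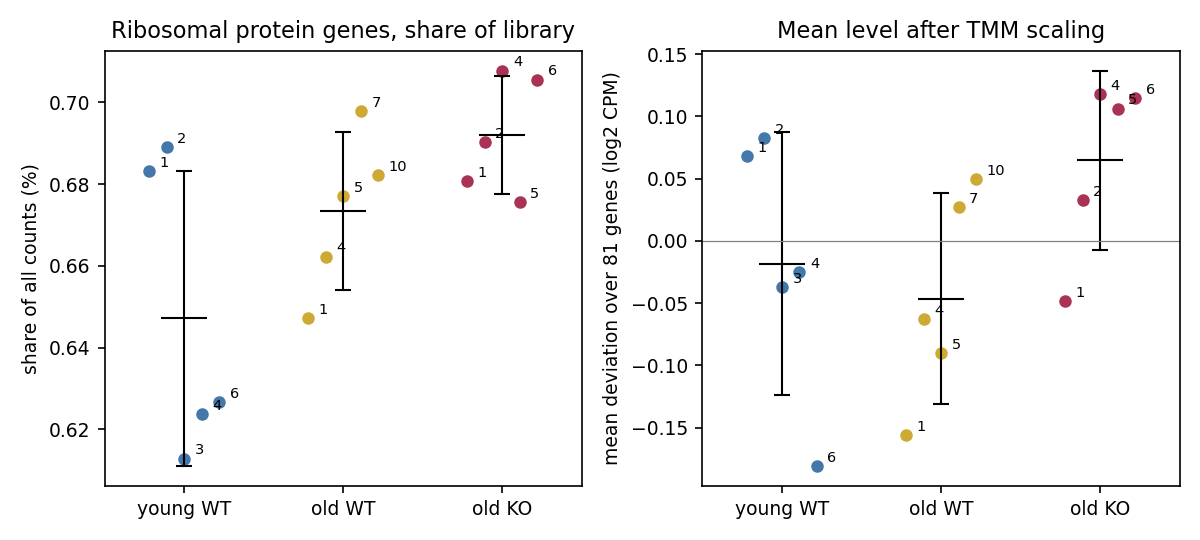
Left, percentage of all counts that fell on the 84 ribosomal protein genes in each library. Right, mean deviation of log2 CPM over the 81 tested genes after TMM scaling. Points are animals with their replicate number, and bars show the group mean with its SD (n = 5). Young WT 6 and old WT 1 were lowest after scaling.

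With age, ribosomal protein mRNAs changed little in the main model, which takes no account of replicate numbers. Old WT was compared with young WT by edgeR's quasi-likelihood test with Benjamini-Hochberg adjustment over all 14258 genes. Rps2 rose, Rpl22l1 and Rpl36 fell, and the other 78 tested members did not pass an adjusted p of 0.05. The 1 member called higher of 81 is 1.23%, against 9.92% of all genes tested, and the 2 called lower are 2.47%, against 8.91%. The median log2 fold change of the members was -0.013, against 0.008 over all genes, and 79 of 81 lay within 0.5 of 0. That median depended on the model. It was 0.034 with library totals alone and -0.099 with replicate number as a block, where 20 of 81 members were positive. Their fold changes had a median standard error of 0.085, against 0.14 over all genes.

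Rps2, a protein of the mRNA entry side of the 40S subunit, is encoded on chromosome 17 (24855061 to 24858874, plus strand, NCBIM37). Its level in young WT was 165, 178, 163, 165 and 113 CPM in animals 1, 2, 3, 4 and 6. The old WT animals 1, 4, 5, 7 and 10 stood at 192, 192, 203, 198 and 216 CPM, and animals 1, 2, 4, 5 and 6 of the old KO group at 221, 220, 228, 232 and 193 CPM. All old WT values lay above all young WT values, and the lowest young value was that of young WT 6. The log2 fold change with age was 0.35 (SE 0.10, adjusted p = 0.0262, edgeR). Without old WT 5 the adjusted p was 0.0532 and without old WT 10 it was 0.0552, while it stayed under 0.05 without young WT 6. Rps2 has 31 short annotated copies, and 20.9% of its windows were unique.

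Rpl22l1 encodes a paralog of the 60S protein Rpl22 and lies on chromosome 3 (28704358 to 28706274, plus strand). It was at 8.50, 8.73, 9.81, 8.35 and 7.55 CPM in young WT, at 4.87, 6.79, 6.11, 5.39 and 6.76 CPM in old WT and at 6.29, 9.62, 7.71, 8.38 and 8.26 CPM in old KO, in the order of the animals above. All old WT values lay below all young WT values, and the old KO values overlapped both. Its level fell by 0.52 on the log2 scale with age (SE 0.13, adjusted p = 0.00985, edgeR), the largest called change of any member with age, and this call held without any 1 library.

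Rpl36, a 60S protein, lies on chromosome 17 (56752818 to 56753666, plus strand). It was at 39.6, 43.8, 32.9, 37.4 and 37.3 CPM in young WT and at 30.8, 27.7, 32.9, 33.5 and 31.5 CPM in old WT, and the groups overlapped at young WT 3. Its level fell by 0.29 on the log2 scale (SE 0.080, adjusted p = 0.0210, edgeR). Without young WT 2 the adjusted p was 0.0589 and without old WT 4 it was 0.0621. Members with non-overlapping groups were 1 higher, Rps2, and 1 lower, Rpl22l1, of 81, while 5.78% of all genes were higher and 5.67% lower in that sense.

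Rpl31 (0.19, SE 0.070) and Rps6 (0.21, SE 0.087) had the smallest unadjusted p among the members with a positive difference that missed the threshold, with adjusted p of 0.0671 and 0.110. Rpl36al, the autosomal relative of the X-linked Rpl36a, had the smallest among those with a negative one (-0.23, SE 0.084, adjusted p = 0.0639, edgeR). DESeq2, and edgeR with an offset on exon length, did call Rpl36al lower with age. The 48 tested 60S genes had a median of -0.027 and the 33 tested 40S genes one of 0.015.

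**Figure D3:**
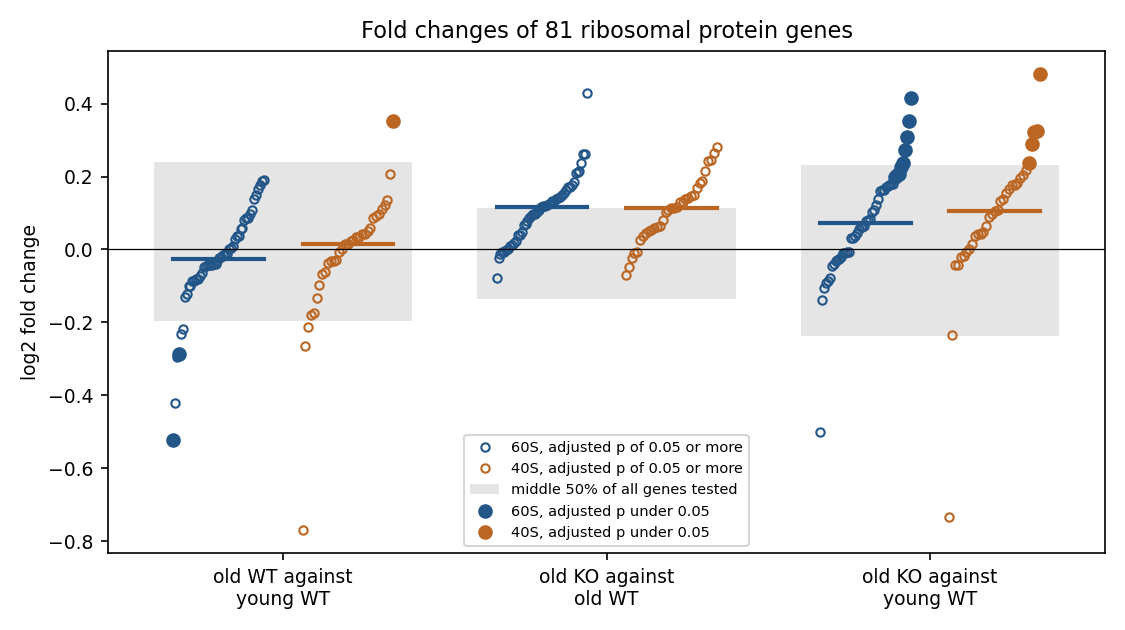
Log2 fold change of each of the 81 tested ribosomal protein genes in the 3 comparisons, sorted within subunit, with the median of each subunit as a line and the middle 50% of all 14258 genes in grey. Filled points have an adjusted p under 0.05: 3 with age, 0 in old KO against old WT and 14 in old KO against young WT.

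Old KO livers showed no called change in any ribosomal protein gene against old WT, although most point estimates were positive. In old KO against old WT the test called 0 of 81 members in either direction, against 0.112% of all genes called higher and 0.421% called lower. At an unadjusted p under 0.05, 16 members (19.8%) had a higher level and 0 a lower one, where 4.85% of all genes were higher and 6.8% lower, and the smallest adjusted p among members was 0.155. DESeq2 called 1 member higher, Rps12 (adjusted p = 0.0493), and limma voom called 0. The log2 fold change was positive in 70 of 81 members (86.4%), against 50.2% of all genes, and its median was 0.11, against 0.0008 over all genes. Among the 7648 genes with a mean of at least 10 CPM, members included, 57.9% were positive at a median of 0.023. The 60S and 40S medians were 0.12 and 0.11.

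That median is about the size of 1 standard error of a single member, which was 0.085 at the median. Such an error is not that of a median over members. Between animals, the mean deviation of the members ran from -0.156 to 0.049 in old WT and from -0.048 to 0.118 in old KO, so the groups overlapped. The median fold change moved with the scaling of libraries. With library totals alone 53 of 81 members were positive and the median was 0.047, while the median of all genes was then -0.067. The difference between the members' median and that of all genes was 0.11 under both scalings. With an offset on exon length 63 members were positive at a median of 0.079, and that difference was 0.073. Without old WT 1, the old WT library lowest in these genes, 5 members remained under an unadjusted p of 0.05 and the median was 0.081. Without old WT 4 there were 9 such members and without old KO 4 there were 10, while without old WT 10 there were 20 at a median of 0.14. Among members with at least 30% unique windows, 41 of 42 were positive with a median of 0.11, and among the other members 29 of 39 with a median of 0.12.

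Markers of some cell types differed along the same comparison, though few were called. The 5 red blood cell markers summed to 79.7 to 164 CPM in old WT and 107 to 395 CPM in old KO, and all 5 had positive fold changes, none of them called. The 5 leukocyte markers summed to 50.4 to 73.9 CPM in old WT and 25.3 to 49.01 CPM in old KO, and the macrophage markers to 152 to 347 and 92.5 to 147 CPM, all with negative fold changes, and 2 of the 6 macrophage markers were called lower. B cell markers ran from 36.7 to 88.5 CPM in old WT and from 44.8 to 614 CPM in old KO, but 4 of the 5 had negative fold changes at a median of -0.57 and 1 had a positive one of 1.88, none of them called. Hepatocyte markers were positive in 5 of 7 at a median of 0.21, and all 5 T cell markers were negative at a median of -0.69. Stellate, bile duct and endothelial markers had medians of 0.068, 0.038 and -0.10. No marker of these 5 cell types was called. The part of any of these cells in the levels of the ribosomal protein genes was not tested.

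Rps12, a 40S protein on chromosome 10 (23504990 to 23507015, minus strand), had the smallest unadjusted p in this comparison. It was at 69.5, 79.6, 60.9, 73.0 and 77.6 CPM in young WT, at 68.4, 65.5, 79.9, 76.1 and 81.2 CPM in old WT and at 92.4, 87.5, 91.4, 94.6 and 85.3 CPM in old KO. All old KO values lay above all values of both other groups. The log2 difference from old WT was 0.28 (SE 0.082, 95% interval 0.11 to 0.46, adjusted p = 0.155, edgeR), and only 1.92% of its windows were unique.

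Rpl22l1 (0.43, SE 0.13, adjusted p = 0.157) and Rpl36 (0.26, SE 0.080, adjusted p = 0.174), both lower in old WT than in young WT, came next in old KO against old WT, where neither passed edgeR's adjusted threshold. Old KO Rpl36 was at 35.7, 35.8, 39.7, 35.8 and 40.7 CPM, above every old WT value. These comparisons share the old WT animals, so a low old WT value enters both with opposite signs. Against young WT, old KO levels of Rpl22l1 and Rpl36 differed by -0.09 (95% interval -0.36 to 0.17) and -0.026 (-0.20 to 0.14). The other 2 members whose old KO and old WT values did not overlap were Rps26 (0.17, SE 0.075) and Rps23 (0.18, SE 0.070), making 4 higher of 81, where 1.12% of all genes were higher and 2.08% lower.

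The members with the smallest unadjusted p among the negative differences in old KO against old WT differed little. Rps14, a 40S platform protein, differed by -0.07 (95% interval -0.28 to 0.14), Rps3a by -0.05 (-0.23 to 0.13) and Rpl26 by -0.025 (-0.22 to 0.18).

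Against young WT, old KO livers had higher levels of 14 ribosomal protein genes and a called fall in none. The 14 are 17.3% of the 81 tested, beside 12% of all genes called higher, and the 0 lower stand beside 11.3% of all genes. They were Rpl7, Rpl7a, Rpl17, Rpl19, Rpl21, Rpl22, Rpl31, Rpl35 and Rpl35a of the 60S subunit and Rps2, Rps6, Rps12, Rps15 and Rps26 of the 40S subunit, with log2 fold changes of 0.20 to 0.48. In 10 of the 14 the old KO and young WT values did not overlap, and no member was lower without overlap, where 7.32% of all genes were higher and 6.56% lower. The median over the 81 was 0.083, against -0.005 over all genes, and 58 were positive. With an offset on exon length the median was 0.036, 48 members were positive and 9 were called higher. Age and genotype both differ between these groups and cannot be told apart here. Against young WT all 5 red blood cell markers were called higher in old KO, at a median log2 fold change of 1.71 and summed levels of 47.3 to 110 CPM in young WT and 107 to 395 CPM in old KO. All 4 endothelial markers had negative fold changes at a median of -0.58, 1 of them called lower, with sums of 118 to 226 and 105 to 124 CPM. Macrophage markers were called lower in 2 of 6. The part of these cells in the 14 calls was not tested.

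Rps2 had the largest of these changes (0.48, SE 0.10, adjusted p = 0.00385, edgeR), with the values given above. Rpl35, a 60S protein near the exit of the peptide tunnel, on chromosome 2 (38857100 to 38861144, minus strand), was at 25.4, 28.3, 27.0, 24.9 and 25.01 CPM in young WT. It was at 28.5, 24.2, 31.3, 33.1 and 30.5 CPM in old WT and at 40.3, 30.8, 36.8, 33.5 and 32.6 CPM in old KO, so old KO lay above young WT in every animal. Its log2 fold change was 0.41 (SE 0.091, adjusted p = 0.00456, edgeR).

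Rpl21, a 60S protein on chromosome 5 (147644466 to 147648608, plus strand), had the smallest adjusted p of any member. It was at 76.7 to 83.8 CPM in the 5 young WT, at 81.1 to 100.3 CPM in old WT and at 91.6 to 112 CPM in old KO, with young WT and old KO apart and old WT between and overlapping both. The log2 fold change was 0.35 (SE 0.074, adjusted p = 0.00354, edgeR). Rps12 was higher by 0.32 (SE 0.082, adjusted p = 0.0104, edgeR). Rpl31 was at 38.2 to 44.1 CPM in young WT and 47.6 to 56.5 CPM in old KO, a difference of 0.31 (SE 0.070).

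The number of calls depended on single libraries. It ran from 8 to 15 when each library was left out, with 8 without old KO 4 and 9 without young WT 4, and was 13 without young WT 6. Rpl21, Rpl31, Rpl35, Rps2, Rps6, Rps12, Rps26 and Rpl7 were called in all 15 of those fits. With a negative difference, Rps27a, which encodes a fusion of ubiquitin and a 40S protein, had the smallest unadjusted p (-0.24, SE 0.093, adjusted p = 0.0756), followed by Rps4y2 (-0.73, SE 0.39) and Rpl10a (-0.14, SE 0.11).

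Rps6 itself, the substrate that gives S6K1 its name, is on chromosome 4 (86500564 to 86503316, minus strand). It was at 66.5, 74.9, 66.8, 62.6 and 54.0 CPM in young WT, at 73.8, 68.2, 69.7, 80.2 and 83.0 CPM in old WT and at 76.9, 73.9, 87.6, 86.0 and 81.4 CPM in old KO. The 3 groups overlapped, old KO and young WT at 1 animal each. Old KO differed from old WT by 0.11 (95% interval -0.07 to 0.30, adjusted p = 0.668, edgeR) and was higher than young WT by 0.32 (SE 0.088, adjusted p = 0.0157, edgeR). Only 5.31% of its windows were unique, so some of its reads may have been counted elsewhere or not at all. The counts measure mRNA and carry no information on phosphorylation of the S6 protein.

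Rps14, on chromosome 18 (60934164 to 60938200, plus strand), served the study as the reference gene for PCR. It was at 124, 126, 106, 111 and 84.6 CPM in young WT, at 113, 124, 115, 127 and 117 CPM in old WT and at 94.8, 119, 116, 117 and 123 CPM in old KO. The groups overlapped, and the low values of young WT 6 and old KO 1 made the spread. Its differences were 0.11 with age (95% interval -0.10 to 0.32), -0.07 in old KO against old WT (-0.28 to 0.14) and 0.04 in old KO against young WT (-0.17 to 0.26), with adjusted p of 0.470, 0.856 and 0.795. These intervals allow differences of up to about 0.32 on the log2 scale.

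Rplp0, Rplp1 and Rplp2 form the P stalk of the 60S subunit, which recruits elongation factors. Rplp0 was at 143 ± 16.1 CPM in young WT, 139 ± 7.71 in old WT and 141 ± 7.74 in old KO (SD, n = 5). Rplp1 was at 139 ± 15.8, 135 ± 20.7 and 157 ± 11.2 CPM in the same order. Rplp2 was at 66.6 ± 15.04, 54.3 ± 6.29 and 62.8 ± 3.31 CPM, and young WT 6 with 91.7 CPM was its highest animal, though that library was low for most members. No P stalk gene was called in any comparison, with adjusted p from 0.104 to 0.953.

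Rpsa, a 40S protein also known as the laminin receptor precursor, was at 99.1 ± 8.46, 101 ± 7.56 and 112 ± 8.43 CPM (SD, n = 5). Rpl13a, which is often used as a reference gene, was at 169 ± 20.6, 159 ± 17.1 and 164 ± 13.7 CPM. Neither was called in any of the 3 comparisons.

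**Figure D4:**
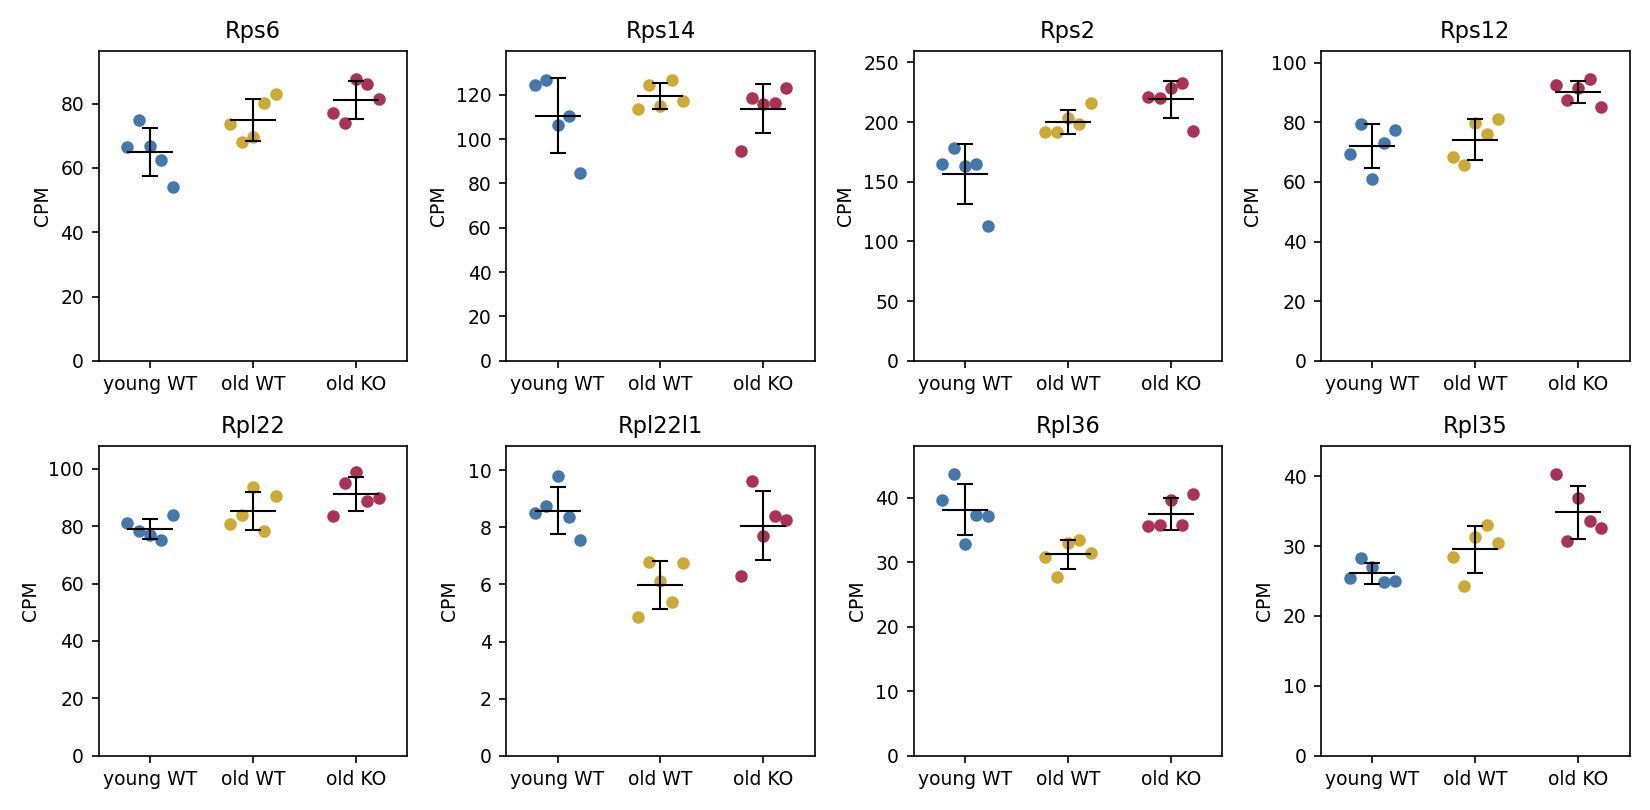
CPM of 8 ribosomal protein genes in each animal (points) with the group mean and SD (bars, n = 5), each axis starting at 0. Rps12 in old KO lay above both other groups, and Rpl22l1 in old WT lay below young WT.

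Several members have a paralog that encodes a related protein. Coding sequences of Rpl22 and Rpl22l1 were identical at 70.4% of aligned bases, those of Rps27 and Rps27l at 76.1%, those of Rpl36a and Rpl36al at 87.9% and those of Rps4x and Rps4y2 at 80.1%, and no 50-base window was shared within any of these pairs. A read of 50 bases matched without a mismatch could therefore be told apart between the partners of a pair. Mismatches allowed in mapping and copies elsewhere in the genome were not part of this comparison. Rpl22, on chromosome 4 (151699851 to 151708180, plus strand), was at 75.1 to 84.1 CPM in young WT, 78.2 to 93.5 CPM in old WT and 83.5 to 98.9 CPM in old KO.

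The count ratio of Rpl22l1 to Rpl22 was 0.109 ± 0.0136 in young WT, 0.0701 ± 0.00806 in old WT and 0.0882 ± 0.0111 in old KO (SD, n = 5). All old WT ratios (0.0604 to 0.0810) lay below all young WT ratios (0.0897 to 0.127). An exact 2-sided permutation test of the log2 ratio gave p = 0.00794 with age, the smallest that 5 against 5 allows, which is 0.0476 after Benjamini-Hochberg adjustment over 12 ratio tests. For old KO against old WT the same exact test gave p = 0.0317 (adjusted 0.0680). The 12 tests covered each comparison for this ratio, Rpl36al to Rpl36a, Rps27l to Rps27, and Rps6 to Rps14, which are not paralogs. For Rps6 to Rps14 the adjusted p of the exact test was 0.346 with age, 0.106 for old KO against old WT and 0.0680 for old KO against young WT. Ratios of other paralog pairs were not tested.

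The ratio of Rpl36al to Rpl36a was 0.611 ± 0.05005 in young WT, 0.524 ± 0.0276 in old WT and 0.530 ± 0.0352 in old KO (SD, n = 5), with an exact permutation p of 0.00794 with age (adjusted 0.0476) and 0.786 for old KO against old WT. The ratio of Rps27l to Rps27 was 1.11 ± 0.122, 1.39 ± 0.186 and 1.19 ± 0.0912, where no exact permutation test passed 0.05 after adjustment (0.0680 with age). Rps27 has almost no unique window, and its count level may be affected by that. In Rpl36a 7.37% of the windows were unique and in Rpl36al 29.98%, so the ratio of these 2 genes is read as uncertain as well.

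Rps4y2, the autosomal relative of the X-linked Rps4x, was at 4.10 to 10.01 CPM in young WT, 2.27 to 8.07 CPM in old WT and 1.54 to 8.68 CPM in old KO, and its spread between animals was among the largest. Rps4x was at 118 to 162 CPM in all libraries. Rpl7l1, a relative of Rpl7 that acts in ribosome assembly, was at 48.4 to 63.8 CPM with adjusted p of 0.736 to 0.953. Summed over the 5 libraries of a group, Rpl3l had 20 counts in young WT, 9 in old WT and 16 in old KO, and Rpl39l had 0, 1 and 2. An exact permutation test of Rpl3l gave p = 0.0397 with age and 0.0238 for old KO against old WT, both 0.119 after adjustment over 6 tests.

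The spread of members between animals was small and partly shared. The SD of log2 CPM within groups had a median of 0.126 over the 78 members with a mean of at least 10 CPM, against 0.161 over 7479 other protein-coding genes of that level. The smallest were those of Rpl7 (0.063), Rpl19 (0.076) and Rpl24 (0.077), and the largest those of Rpl23a (1.06), Rps4y2 (0.716) and Rps28 (0.274). After removal of the group means, pairs of members correlated with a median r of 0.41 over the 15 libraries, and 88.3% of pairs were positive. Pairs of 40S genes had a median of 0.51 and pairs of 60S genes one of 0.36, while mitochondrial ribosomal protein genes had 0.35 and other protein-coding genes 0.013. All pairs share the same libraries and scaling factors, so these values are a description.

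Rpl23a was the most variable member, with 0.239 CPM in old WT 5 and 4.60 CPM in young WT 3. Only 5.48% of its windows were unique, so this spread is read as uncertain. Rps28, a small 40S protein, was at 17.3 to 33.4 CPM in young WT, with young WT 6 lowest, and at 16.5 to 25.7 CPM in old WT. Its difference with age was -0.26 (SE 0.15, adjusted p = 0.237, edgeR), and without young WT 6 the adjusted p was 0.0338.

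Genes around the ribosome were taken from lists chosen with earlier results known, and no difference between lists was tested. Of 25 ribosome biogenesis genes, 16 fell (64%) and 0 rose with age, beside 8.91% and 9.92% of all genes, with a median log2 fold change of -0.36. They included Nop58, a core protein of box C/D snoRNPs (fell by 0.77, SE 0.098, adjusted p = 0.000241, edgeR), and Mybbp1a (fell by 0.64, SE 0.11). In old KO against old WT 0 of the 25 were called, at a median of 0.029. Of 20 translation factors and other mRNAs with a TOP tract 1 was called with age, Hnrnpa1 (fell by 0.61, SE 0.14), and the median was -0.005. In old KO against old WT 0 of these 20 were called, 12 were positive and the median was 0.018. Eef1a1 was at a mean of 2622 CPM in young WT and differed by 0.11 with age (SE 0.082).

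Of 75 tested mitochondrial ribosomal protein genes, 2 rose (2.67%) and 6 fell (8%) with age, beside 9.92% and 8.91% of all genes, at a median of -0.053. In old KO against old WT 0 were called, 61 of 75 were positive and the median was 0.074, beside 0.11 for the cytoplasmic members. Fau, which encodes a ubiquitin-like protein fused to a 40S protein and is outside the rule, differed by 0.16 (SE 0.076) in old KO against old WT and was not called. Of 16 genes of ribosomal protein assembly, control and sensing 2 (12.5%, beside 8.91% of all genes) were called lower with age, Grwd1 (fell by 0.45, SE 0.14) and Eif4ebp3 (fell by 4.29, SE 0.54), and 0 were called in old KO against old WT. Against young WT old KO had 14 of the 25 biogenesis genes lower (56%) and 0 higher, beside 11.3% and 12% of all genes.

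**Figure D5:**
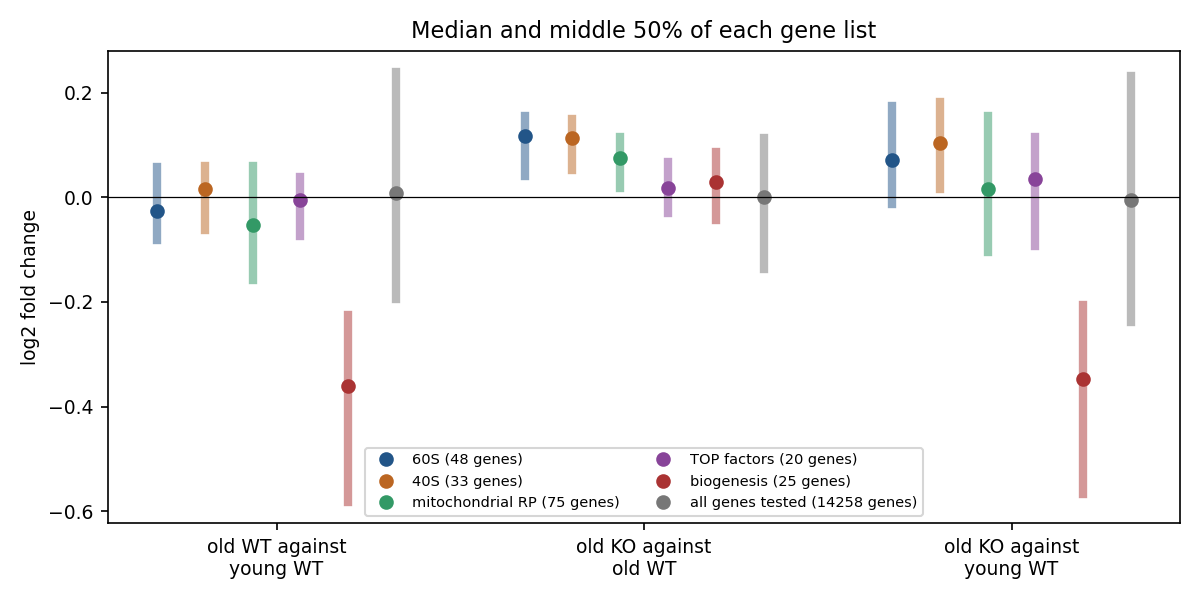
Median (point) and middle 50% (bar) of the log2 fold changes in each gene list for the 3 comparisons. Ribosome biogenesis genes lay near -0.36 with age and near -0.35 in old KO against young WT, while cytoplasmic ribosomal protein genes of both subunits stayed between -0.027 and 0.12 at the median.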

How the data were processed

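Whole liver RNA of 15 mice was sequenced by the authors as 50-base single-end reads of stranded mRNA libraries and mapped with TopHat2 2.0.11 to mm9 (NCBIM37), and the counts per gene that the authors deposited were made with HTSeq. Annotation release, strand setting and treatment of reads that fit several places are not given in the sources used here. Counts were tested as deposited, on all 15 libraries in 1 model without covariates, with edgeR 4.0.16 (R 4.3.3): TMM scaling, filterByExpr, quasi-likelihood test, Benjamini-Hochberg adjustment over 14258 genes, threshold 0.05. No replicate pair within a group agreed within sampling noise (chi-square per degree of freedom, lowest 19.7 over 30 pairs). Labels give 1 title per animal, and p-values measure the spread between these animals. Intervals are at 95%.

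The members and lists were chosen with earlier results of these data known. Named genes were Rps6, Rps14, Rplp0, Rplp1, Rpsa, Rpl13a, the paralogs, up to 5 called members in each direction and comparison (3 by unadjusted p where fewer passed), the 5 highest and lowest by level per length, and the 3 with the largest and smallest SD. The other members named were chosen after their values were seen. Ratios and members under the filter were tested by exact permutation of 5 against 5 animals, 252 assignments. Alternatives were other scalings, filters, tools (DESeq2 1.42.0, limma 3.58.1), samples and offsets. Scripts were tested on simulated data.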

Additional observations from a re-analysis of the deposited data

Results flagged for a closer look

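In 2 of 114 groups of 5 values tested, 1 animal stood apart from the other 4 by Dixon's criterion, which chance meets in about 1 of 20 groups. Rps2 in young WT 6 was at 113 CPM, with the nearest young WT animal at 163 CPM, a gap of 0.769 of the group's range. Rps14 in old KO 1 was at 94.8 CPM, with the nearest old KO animal at 116 CPM, a gap of 0.745 of the range.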

How the results depend on the processing

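Of the values over 90 results and their alternatives, none reversed a called direction. With library totals alone 3 members were called higher with age (Rpl31, Rps2, Rps6), 1 lower, and 1 lower in old KO against young WT (Rps27a). Without a filter on low counts 7 were called higher in old KO against young WT. DESeq2 called 1 higher in old KO against old WT. Both DESeq2 and the offset on exon length added Rpl36al to the members called lower with age. With the 10 libraries of a comparison alone 0 were higher with age and 1 was lower in old KO against young WT. With an offset on exon length 9 were higher and 1 was lower in that comparison. No label says that replicate numbers pair animals, and correlations of same-numbered animals were -0.153 to 0.077. These few values cannot settle whether the numbers mark a pairing. With the replicate block 0 members were called higher and 0 lower with age, and 4 were called higher in old KO against young WT. With age the block gave 20 of 81 positive and a median of -0.099, which was -0.11 relative to the median of all genes. In old KO against old WT the block gave 78 of 81 positive, 25 under an unadjusted p of 0.05 and a median of 0.18. Leaving out each library gave 0 to 1 members higher and 1 to 3 lower with age, 0 in either direction in old KO against old WT, and 8 to 15 higher and 0 to 1 lower in old KO against young WT, the lower one Rps4y2 without old KO 6. The cause of these moves was not tested. Offsets on GC content and addition of counts at annotated copies were chosen after seeing the data. Reads shared with copies and 5 animals a group limit what single members can show.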
